A study of Mus musculus with 2 samples.

Results

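The genes described here are 9 small nucleolar RNA host genes of the mouse, Snhg1, Snhg3, Snhg5, Snhg6, Snhg8, Snhg11, Snhg12, Snhg14 and Gas5, in the embryonic forebrain. They were chosen by symbol, and the choice was prompted by the large difference of Snhg11 between the 2 libraries of the study, so that difference is given below as a description without a test. The symbols were matched to Ensembl identifiers, and 7 of the 9 genes had a row among the 43346 Ensembl genes of the gene tables. Snhg1 and Snhg8 had no row under their current identifiers and have no values here.

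Small nucleolar RNAs (snoRNAs) guide chemical modification of ribosomal and other RNAs inside the nucleolus. C/D box snoRNAs guide methylation of the ribose, and H/ACA box snoRNAs guide conversion of uridine to pseudouridine. In mammals most snoRNAs lie in introns and are trimmed out of the intron after splicing, so the host gene is transcribed and spliced to release them. Many hosts encode ribosomal proteins or translation factors, while the Snhg genes and Gas5 are spliced into exons that encode no known essential protein and in several cases are degraded by nonsense-mediated decay.

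The tissue was forebrain of healthy B6NCrl mouse embryos aged 16.5 days, with both sexes pooled and no treatment named. For the second pool the labels give 41 embryos. Libraries were made from 10 ng of total RNA, limited to molecules above 200 nt, to which spike-in RNAs had been added. The series has 1 group with 2 biological replicates, 1 library each, which share 1 donor strain entry. No condition was compared, and every difference below is one between these 2 pools. Because tissue was pooled and measured in bulk, fewer cells of a type and less RNA per cell cannot be told apart.

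Expected counts on genes, which are the reads assigned to each gene by a model, summed to 31211128 in replicate 1 and 26957198 in replicate 2. For the tissue label, 10 telencephalon markers were looked up, and all were measured. Their summed level was 977.4 TPM (replicate 1) and 1165.5 TPM (replicate 2). All 10 had higher scaled counts in replicate 2, with a median log2 ratio of 0.20 (0.76 with spike-in scaling). A ratio between the pools cannot check the label of either. Hypothalamus markers had a summed level of 54.9 TPM (replicate 1) and 17.4 TPM (replicate 2). TPM is a level in transcripts scaled to a fixed sum per library, corrected for gene length. Where a pair of values is given, replicate 1 comes first.

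The 7 measured host genes spanned a wide range of levels, from Gas5, which lay above 99.4% of all listed genes, to Snhg12. Gas5 (growth arrest specific 5), known for accumulating when cells stop growing, stood at 431 and 440 TPM in replicates 1 and 2, a mean of 435 ± 6.20 TPM (SD, n = 2). Snhg14, the long paternally expressed transcript of the Prader-Willi and Angelman syndrome region, stood at 137 and 106 TPM, a mean of 121 ± 22.3 TPM. Snhg11, a host transcript known from neurons, stood at 177 and 41.0 TPM, a mean of 109 ± 95.8 TPM. The SD of Snhg11 was 88.0% of its mean, compared with 1.43% for Gas5.

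Snhg5, host of 2 C/D box snoRNAs, followed at 102 and 106 TPM, a mean of 104 ± 2.71 TPM. Snhg6, host of Snord87, stood at 73.0 and 81.4 TPM, a mean of 77.2 ± 5.92 TPM. In TPM, these 2 genes were close to equal in both pools. Snhg3, host of the Snora73 pair, stood at 29.2 and 22.4 TPM, a mean of 25.8 ± 4.83 TPM. Snhg12 was lowest at 21 and 18.6 TPM, a mean of 19.8 ± 1.70 TPM. In the order by mean TPM, Snhg14 and Snhg11 did not differ beyond their spread, nor did Snhg11 and Snhg5. The remaining 4 neighbouring pairs kept their order in both libraries, with a gap larger than the combined SD. By mean log2(TPM + 1), Snhg11 took place 4 instead of 3.

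**Figure D1:**
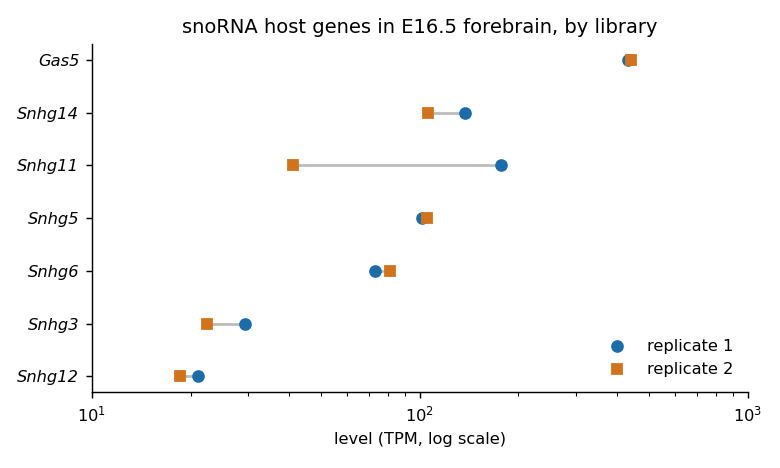
Level of the 7 measured host genes in TPM on a log scale, with 1 circle for replicate 1 and 1 square for replicate 2, joined by a grey line. The symbols of Gas5, Snhg5 and Snhg6 lie close together, whereas those of Snhg11 lie at 177 and 41.0 TPM.

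To compare the pools, counts were scaled by the trimmed mean of M values (TMM) and the log2 ratio of replicate 2 over replicate 1 was taken, with an interval that covers counting error only. A gene was counted as differing when it had a mean of at least 50 counts, a ratio of at least 2-fold and a 95% interval that excluded equality. Of the 7 host genes, 1 (Snhg11) was higher in replicate 1 by this rule, beside 141 of 13927 genes compared (1.01%). None was higher in replicate 2, beside 51 genes (0.366%). Scaling by the spike-ins instead moved the median log2 ratio of all genes by 0.55 and gave 21 and 514 genes, with Snhg11 at -1.44 and still the 1 host gene past the rule. Ratios here are therefore relative to the typical gene of these libraries. Snhg11 was part of the reason for choosing these genes, so nothing is read from its count. The median log2 ratio of the 7 genes was -0.27, and that of the 6 genes other than Snhg11 was -0.13. The median over all genes compared was 0.01, and the central 95% of them ran from -0.76 to 0.53.

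Snhg11 had 12831 expected counts in replicate 1 and 2746 in replicate 2. Replicate 1 was the higher library. The log2 ratio was -1.99 (95% counting interval -2.05 to -1.93), or 3.97-fold, and 12 of the 13927 genes compared had a lower ratio. Snhg11 prompted the choice by this difference, and its own mean count set the next cut-off, so its place is a description only. Among the 562 genes with at least the mean count of Snhg11, 4 differed by the rule and none other than Snhg11 itself had a ratio as low. The other 3, of which Gm10925 was named after its values were seen, were the imprinted noncoding RNA Meg3 at -1.10, the pseudogene Gm10925 at -1.02 and the collagen gene Col1a1 at 1.89.

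**Figure D2:**
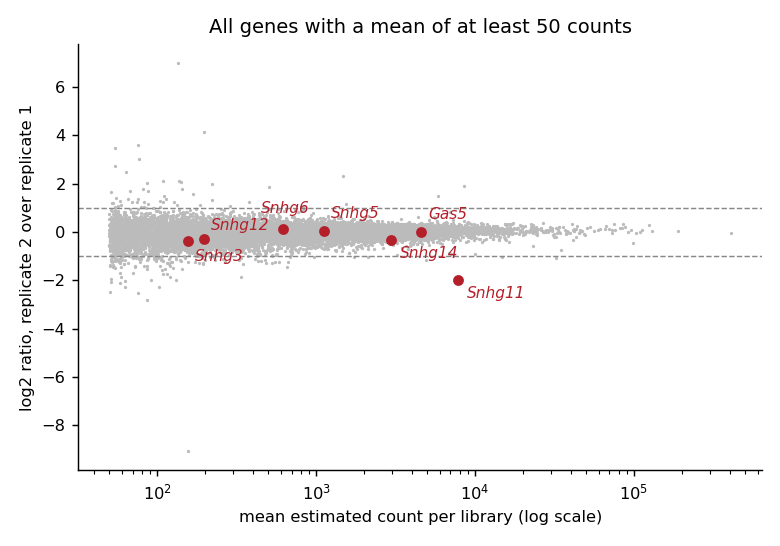
Log2 ratio of replicate 2 over replicate 1 against the mean estimated count per library on a log scale, for all 13927 genes compared (grey) and the 7 host genes (red), with dashed lines at 2-fold. Snhg11 lies at -1.99, below the genes of similar count, and the other 6 host genes lie inside the grey band.

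The other 6 host genes stayed within 2-fold. Gas5, with 4938 and 4231 counts, had a log2 ratio of 0.01 (-0.05 to 0.07). Snhg5, with 1190 and 1051 counts, had a ratio of 0.05 (-0.07 to 0.18), and Snhg6, with 645 and 590 counts, one of 0.11 (-0.06 to 0.27). The intervals of these 3 genes included 0 under TMM scaling, while under spike-in scaling the ratios were 0.57 (0.51 to 0.63), 0.61 (0.49 to 0.73) and 0.66 (0.50 to 0.82). Snhg14, with 3500 and 2385 counts, had a ratio of -0.32 (-0.39 to -0.24). Snhg3, with 189 and 122 counts, had a ratio of -0.39 (-0.73 to -0.05), and Snhg12, with 231 and 162 counts, one of -0.27 (-0.57 to 0.02). Under TMM scaling Snhg14 and Snhg3 were therefore lower in replicate 2 beyond counting error, while the interval of Snhg12 reached 0, and under spike-in scaling these 3 ratios turned to 0.24, 0.17 and 0.28.

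**Figure D3:**
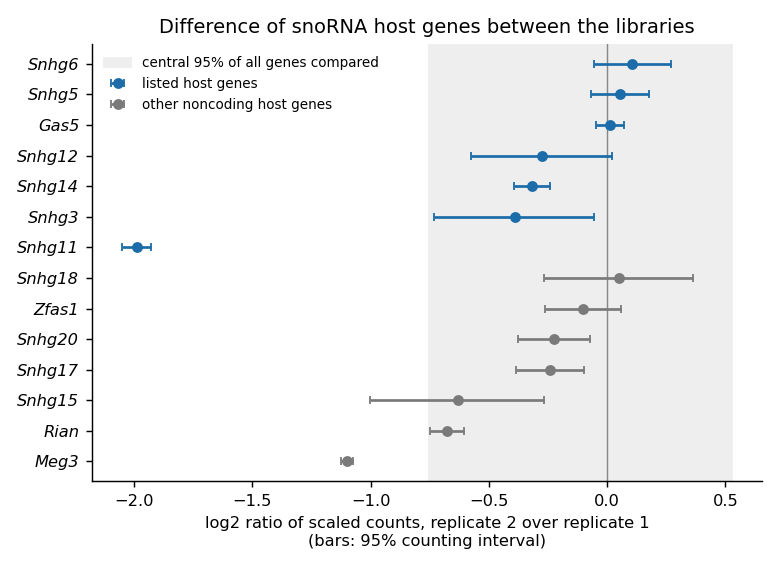
Log2 ratio of scaled counts, replicate 2 over replicate 1, for the 7 listed host genes (blue) and 7 genes listed as other noncoding hosts (grey). Meg3 is among the latter, although its snoRNA cluster lies downstream of it. Bars are 95% counting intervals, and the shaded band is the central 95% of all genes compared. Snhg11 and Meg3 lie to the left of the band, and the other points lie inside it.

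Snhg11 (ENSMUSG00000044349) covers chr2:158375638-158386145 on the plus strand of GRCm38 and is typed as protein-coding in GENCODE M21. No other annotated gene apart from its own snoRNAs lay within 10 kb. Both of the snoRNAs inside it are 133 bases long and end in the letters ACA, the mark that H/ACA snoRNAs carry near their 3′ end. They are shown because Snhg11 is the host that differed between the pools, with the ACA in capitals, on the plus strand at chr2:158378222-158378354 and chr2:158379534-158379666.
Gm25187: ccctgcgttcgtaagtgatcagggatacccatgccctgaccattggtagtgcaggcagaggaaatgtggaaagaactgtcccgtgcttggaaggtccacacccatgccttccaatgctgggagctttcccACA
Gm25129: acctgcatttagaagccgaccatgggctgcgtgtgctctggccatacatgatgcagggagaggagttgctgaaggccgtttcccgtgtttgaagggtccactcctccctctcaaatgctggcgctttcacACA
Among 1558 annotated snoRNA and scaRNA sequences, 46.5% held ACA within the last 6 bases. Gm25187 was listed with 2.40 and 0 counts and Gm25129 with 0 and 1 count. A count of 0 allows up to 3 counts, so the difference of the host could not be followed into its snoRNAs at this depth.

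All 5 listed transcripts of Snhg11 had a ratio below 0. Snhg11-201, the leading transcript with 5 exons and 5864 bases, held 57.7% of the gene's TPM in replicate 1 and 65.4% in replicate 2. Its own level was 102 and 26.8 TPM, and its log2 ratio was -1.94 (-2.00 to -1.88). Snhg11-205, annotated as a target of nonsense-mediated decay, held 32.3% and 26.9%, at 57.0 and 11.1 TPM, with a ratio of -2.38 (-2.60 to -2.17). The 2 intervals did not overlap, so the shorter transcript was lower in replicate 2 by more than the leading one. The division of reads among transcripts comes from the authors' model and has its own error, which these intervals do not hold.

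The 5 genes with a mean TPM within 2-fold of Snhg11 and the log2 ratio nearest to that of Snhg11 were taken, over 2 libraries and 2732 candidate genes. Hap1, which encodes huntingtin-associated protein and is known from hypothalamic neurons, was nearest at 136 and 61.2 TPM, a ratio of -1.15. Tmem130 followed at 190 and 104 TPM (-0.90), and Zcchc12 at 250 and 139 TPM (-0.86). The pseudogene Gm10146 had a ratio of -0.78 and Gm21887 one of -0.73. Even the nearest was 0.84 log2 units from Snhg11. With 1 library on each side, likeness rests on a single ratio.

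Hypothalamus marker genes moved in the same direction as Snhg11, under TMM and under spike-in scaling (median -1.55). Of 11 hypothalamus markers, 7 had a mean of at least 50 counts over both libraries. All 7 had ratios below 0, and 6 were higher in replicate 1 by the 2-fold rule. A gene of low level can pass this minimum through replicate 1 alone, so these counts depend in part on the filter. Over all 11 markers, without the filter, the summed level was 54.9 and 17.4 TPM. Avp, the vasopressin gene, stood at 19.6 and 3.98 TPM (log2 ratio -2.29), Trh at 7.59 and 3.21 TPM (-1.25), Gal at 8.52 and 1.97 TPM (-2.10) and Crh at 3.84 and 0.68 TPM (-2.48). The transcription factor genes Sim1 and Otp had ratios of -2.84 and -2.05, and Nkx2-1 had -0.71. The median of the 7 markers was -2.10. It was -2.07 over 8 markers at a minimum of 20 counts. At a minimum of 200 counts 1 marker was left, at -0.71, so the median rests on genes of low count. No marker was listed at 0 in both libraries, and Hcrt and Rax were listed at 0 in replicate 2. The 6 thalamus markers had a summed level of 94.3 and 56.0 TPM and a median ratio of -0.52 (0.03 with spike-in scaling), and the 12 pan-neuronal genes one of 4656 and 4258 TPM and a median of -0.26 (0.29). Radial glia and progenitor genes had a median of 0.32 (0.87 with spike-in scaling). Meninges and connective tissue genes had one of 0.87 (1.42), with 226 and 499 TPM in sum. Erythroid genes had a median of 0.33 (0.89), and microglia and endothelium genes one of 0.25 (0.80). Of 9 other neuronal long noncoding RNAs compared, 7 had ratios below 0 and 2 above, with a median of -0.54 (0.01). Of 10 midbrain and hindbrain markers, 2 had enough counts, with 1 ratio below 0 and 1 above. The part of these differences in the result for Snhg11 was not tested.

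Snhg14 (ENSMUSG00000100826) covers chr7:59307924-59975759 on the minus strand of GRCm38, or 667836 bases. Its annotated span held 208 snoRNA genes on the same strand, 85 of them distinct in sequence. A pair of tandem families made up most of them, 130 genes of 79 bases and 68 genes of 94 bases. One copy of each is shown because the repeats are what sets this host apart, both from the minus strand, at chr7:59617612-59617690 and chr7:59902213-59902306. Capitals mark the C box (TGATGA, searched from the 5′ end) and the D box (CTGA, searched at the 3′ end).
Gm23560: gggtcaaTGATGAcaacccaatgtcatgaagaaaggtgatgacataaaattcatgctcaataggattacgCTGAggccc
Snord116l11: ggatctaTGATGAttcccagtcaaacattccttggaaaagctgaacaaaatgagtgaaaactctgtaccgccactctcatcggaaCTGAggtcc
The first sequence is that of 33 of the 130 genes of its length, and the second that of 30 of the 68. Both boxes were found in 189 of the 208 genes, beside 310 (19.9%) of all 1558 annotated sequences. These totals include the genes of Snhg14 themselves. A match to these letters is a description of the sequence.

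Distances below are from the 5′ end of the GENCODE span, at 59975759. RefSeq places a start of Snhg14 at 60450177, further upstream and beyond Snrpn, so distances and the order of genes hold for the GENCODE span only. The transcripts of Snhg14 did not share 1 ratio. Of 15 listed, 13 had ratios below 0, 1 was above 0 and 1 was listed at 0 in both libraries. Snhg14-203, the leading transcript, held 22.8% and 20.1% of the gene's TPM and had a ratio of -0.58 (-0.84 to -0.32). Snhg14-205 held 14.3% and 15.6%, Snhg14-207 held 13.9% and 10.5%, and Snhg14-201 held 11.2% and 12.9%. The next 3 were named after their values were seen, for their places along the locus. Snhg14-209, whose midpoint lies 3.75 kb from the annotated 5′ end, was the transcript above 0, with 292 and 338 counts and a ratio of 0.45 (0.22 to 0.68). Snhg14-206, at 159 kb, had 132 and 55.0 counts and a ratio of -1.02 (-1.50 to -0.56). Snhg14-213, at 660 kb, had 764 and 575 counts and a ratio of -0.18 (-0.33 to -0.02). Relative to the whole gene, transcripts on either side of its ratio lay near both ends of the locus.

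**Figure D4:**
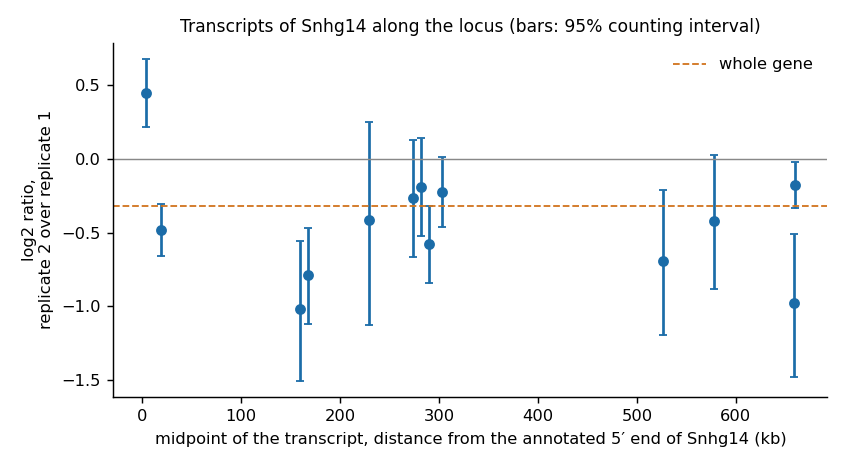
Log2 ratio of replicate 2 over replicate 1 for the 13 transcripts of Snhg14 with a mean of at least 10 counts, against the distance of the transcript's midpoint from the annotated 5′ end in kb, with 95% counting intervals. The dashed line is the ratio of the whole gene, -0.32. The transcript at 3.75 kb lies above 0, and the other 12 lie below it.

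Snhg14 overlaps Ube3a, the ubiquitin ligase gene of Angelman syndrome, on the opposite strand by 3613 bases. Ube3a stood at 61.1 and 67.5 TPM, a log2 ratio of 0.13 (0.07 to 0.18), against -0.32 for Snhg14. Strand use in counting is not given in the sources used here, so reads in the overlap cannot be told apart. Snrpn, a splicing protein gene upstream of the GENCODE span of Snhg14 on the same strand, stood at 487 and 397 TPM with a ratio of -0.31 (-0.35 to -0.28), and Snurf, which shares the Snrpn transcript, at 356 and 293 TPM with -0.30. The ratios of Snrpn and Snhg14 lay within each other's intervals. The other paternally expressed genes of the interval included Ndn at 1019 and 684 TPM (-0.59) and Magel2, known from hypothalamus, at 11.7 and 4.28 TPM (-1.46). Magel2 was the 1 gene of 7 in this interval that passed the 2-fold rule, and the median of the 7 was -0.30 (0.26 with spike-in scaling).

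Gas5 (ENSMUSG00000053332) covers chr1:161034422-161038539 on the plus strand of GRCm38. It held 10 annotated snoRNA genes, 8 of them with both boxes. All are 60 to 84 bases long. Snord47, at chr1:161038082-161038158 on the plus strand, is shown with its C and D boxes in capitals as an example of the C/D snoRNAs that this gene carries.
Snord47: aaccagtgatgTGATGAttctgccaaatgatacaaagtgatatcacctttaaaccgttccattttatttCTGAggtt
Of 25 listed transcripts of Gas5, Gas5-210 led with 38.9% and 35.2% of the gene's TPM. Gas5-224 held 15.8% and 17.6%, and Gas5-213, a retained-intron form, 9.81% and 10.3%. Together the 20 retained-intron transcripts of Gas5 held 44.1% in replicate 1 and 46.7% in replicate 2. Over all 3994 genes with such a transcript and at least 10 TPM in both libraries, the median share was 9.70% and 7.27%, and it was lower in replicate 2 in 2970 of them. Gas5 overlaps Zbtb37 on the other strand by 428 bases. Zbtb37 stood at 13.8 and 11.8 TPM, far below Gas5.

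Snhg5 (ENSMUSG00000097195) covers chr9:88521050-88522929 on the minus strand. Its snoRNAs Snord50a and Snord50b are each 72 bases long and both hold the 2 boxes. Snord50a is shown, from chr9:88521529-88521600 on the minus strand, with the boxes in capitals.
Snord50a: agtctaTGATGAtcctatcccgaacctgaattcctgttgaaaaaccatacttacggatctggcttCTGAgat
The leading transcript, Snhg5-204, is itself a retained-intron form and held 29.9% and 31.3%. The 3 retained-intron transcripts of Snhg5 together held 61.3% and 61.7% of its TPM, the highest such share of the 3 host genes with this annotation. Snhg11 had 9.55% and 7.69%.

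Snhg6 (ENSMUSG00000098234) covers chr1:9941959-9944118 on the minus strand and hosts Snord87, an 87-base C/D snoRNA at chr1:9942463-9942549 on the minus strand, shown with its boxes in capitals.
Snord87: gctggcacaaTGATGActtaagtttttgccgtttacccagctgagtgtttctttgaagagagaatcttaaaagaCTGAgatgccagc
Snhg6-203 led with 39.0% and 38.5% of the gene's TPM. Snhg6-205 held 28.9% and 25.1%, Snhg6-204 held 19.1% and 19.9%, and Snhg6-202 held 13.0% and 16.4%. Snhg6 overlaps Mcmdc2 on the other strand by 127 bases. Mcmdc2 stood at 4.04 and 2.06 TPM, a log2 ratio of -0.77 (-1.19 to -0.37). The ratio of Snhg6 was 0.11 (-0.06 to 0.27), an interval that included equality, so its sign was not set.

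Snhg3 (ENSMUSG00000085241) covers chr4:132348014-132353686 on the minus strand. It hosts Snora73a and Snora73b, 205 bases each, the longest snoRNAs of these hosts. Snora73b is shown, from chr4:132352322-132352526 on the minus strand, with the ACA near its 3′ end in capitals.
Snora73b: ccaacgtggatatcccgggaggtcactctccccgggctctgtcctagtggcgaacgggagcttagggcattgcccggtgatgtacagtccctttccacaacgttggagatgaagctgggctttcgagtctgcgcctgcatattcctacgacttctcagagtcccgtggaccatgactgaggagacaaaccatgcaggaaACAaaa
Snhg3-204 held 87.6% and 90.6% of the gene's TPM, the most concentrated of the 7 hosts. Snhg3 overlaps Rcc1 on the same strand over 5592 bases. Rcc1, which encodes a nuclear exchange factor for Ran, stood at 42.6 and 44.3 TPM with a log2 ratio of 0.08 (-0.03 to 0.18). Reads in shared sequence of the 2 genes could be split by the authors' model, so the level of Snhg3 is uncertain.

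Snhg12 (ENSMUSG00000086290) covers chr4:132308623-132311024 on the plus strand. It held 5 annotated snoRNA genes, Snora16a (annotated under 2 identifiers at nearly the same place), Snora44, Snora61 and Snord99. Snhg12-206 held 48.5% in replicate 1 and 71.9% in replicate 2, while Snhg12-205 held 24.7% and 16.4% and Snhg12-207 held 10.2% and 7.99%. In levels, Snhg12-206 stood at 10.2 and 13.4 TPM, and its log2 ratio of 0.38 had an interval of -0.03 to 0.79. Snhg12-205 stood at 5.19 and 3.04 TPM, with a ratio of -0.78 (-1.37 to -0.22).

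The leading transcript was the same in both libraries in 7 of 7 host genes. Its share lay at least 10 percentage points apart in 1 of 7 (Snhg12), beside 856 of 6833 genes (12.5%) with at least 10 TPM in both libraries and at least 2 transcripts. A share of 1 in 7 is near that background. Snhg12 had 231 and 162 counts over 7 transcripts, so few reads stand behind each share.

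**Figure D5:**
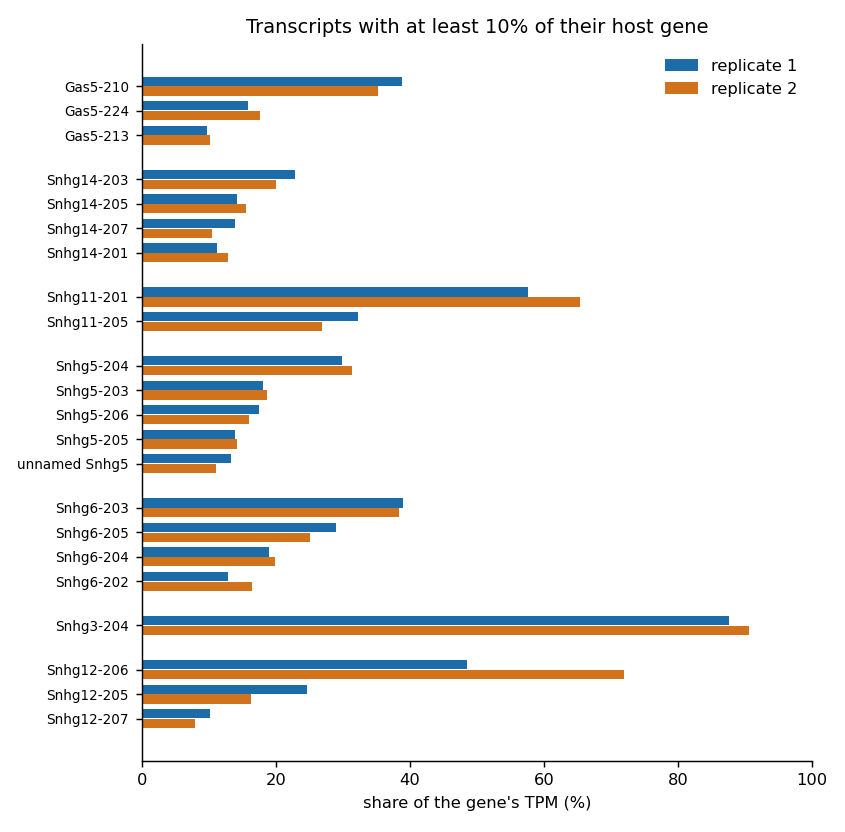
Share of the host gene's TPM in percent held by each transcript that reached 10% in at least 1 library, with 1 bar for replicate 1 and 1 for replicate 2. The bars of Snhg12-206 lie furthest apart, at 48.5% and 71.9%, and 1 transcript of Snhg5 has no name in the annotation used.

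The snoRNAs themselves were mostly outside what these tables can show. The effective length, which is the room a fragment has to start in, was 99 bases below the full length wherever it was above 0. Among the listed snoRNAs, 460 of 1525 (30.2%) had an effective length of 0 and no counts. All snoRNAs listed within Gas5, Snhg5, Snhg6 and Snhg14 were among them. The 2 snoRNAs of Snhg3 summed to 9.22 and 2.46 counts, against 189 and 122 for the host. For Snhg1 and Snhg8 the snoRNAs had rows although the hosts had none. The 8 of Snhg1 summed to 0 counts in both libraries, with 1 of them long enough to receive any, and Snora24 in Snhg8 had 0 and 1 count. RNA was selected above 200 nt, and the snoRNAs within these hosts are shorter than that except for the pair in Snhg3.

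Many snoRNA hosts belong to the genes whose transcripts start in a run of pyrimidines, the 5′ terminal oligopyrimidine (TOP) type, whose stability and translation respond to growth signals. RefSeq start sites were found for 8 of the 9 hosts, with 2 for Gas5. The stretch from 50 bases before to 30 bases from the start site was searched for a run of at least 5 letters C or T that begins within 5 bases of the start. Such a run was found in Snhg1, Snhg3, Snhg8, Snhg12 and at the second start of Gas5, and in 22.0% of 32851 promoters. The letters TATA between 40 and 15 bases upstream were found in Snhg1, Snhg5, Snhg8, Snhg12 and at the second start of Gas5, and in 5.91% of promoters. Both were found in 1.41% of promoters, and in 4 of the 8 hosts. These searches were chosen after some of the sequences had been seen. The windows of 3 hosts are shown with the pyrimidine run and TATA in capitals, at chr4:132308628-132308707 (plus strand), chr1:161035116-161035195 (plus strand) and chr2:158375663-158375742 (plus strand).
Snhg12: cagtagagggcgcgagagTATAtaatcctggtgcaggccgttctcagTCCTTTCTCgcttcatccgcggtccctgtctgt
Gas5: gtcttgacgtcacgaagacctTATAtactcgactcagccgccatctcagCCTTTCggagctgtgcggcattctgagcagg
Snhg11: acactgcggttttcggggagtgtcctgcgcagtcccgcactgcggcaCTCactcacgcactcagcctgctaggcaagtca
Among runs that begin within 5 bases of the start site, the longest had 3 letters at Snhg11, Snhg5 and the first start of Gas5. At Snhg14 it had 2. The windows of Snhg11, Snhg14, Snhg5 and the first start of Gas5 hold longer runs elsewhere, so these lengths depend on the 5-base limit. TATA was not found between 40 and 15 bases upstream in Snhg11, Snhg14, Snhg3 or at the first start of Gas5. The window of Snhg3 holds TATA downstream of the RefSeq start. Taken singly, short runs and missing TATA were thus not particular to Snhg11 and Snhg14. Both together were found at Snhg11, Snhg14 and the first start of Gas5.

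Other noncoding snoRNA hosts had mostly negative ratios under TMM scaling. Of 13 listed, 8 had a row and 7 had enough counts, with a median log2 ratio of -0.24 (0.31 with spike-in scaling), 6 below 0 and 1 above. The host genes described above had 4 ratios below 0, Snhg11 included, and 3 above. Meg3, an imprinted noncoding RNA with a snoRNA cluster downstream, stood at 1253 and 687 TPM and passed the 2-fold rule. It was counted in this list although that cluster lies outside it. Rian, which carries that cluster, stood at 134 and 90.3 TPM (-0.68), Snhg20 at 71.7 and 60.1 TPM (-0.23) and Zfas1 at 51.5 and 53.0 TPM (-0.10). Over all 681 long noncoding genes compared the median was -0.26, with 53 higher in replicate 1 by the rule and 0 in replicate 2. The 6 host genes other than Snhg11 had a median of -0.13.

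Protein-coding hosts were at higher levels and, under TMM scaling, near equality. All 33 listed were measured, at a median of 375 TPM. Under TMM scaling 25 had ratios above 0 and 8 below. The median was 0.05 (0.61 with spike-in scaling), and the range under TMM scaling ran from -0.10 to 0.29. None passed the 2-fold rule. Hspa8, a chaperone gene that hosts several snoRNAs, stood at 2865 and 2983 TPM, and Eif4g2, a translation factor gene, at 1009 and 1132 TPM. The ratio of Gas5 lay inside this range. That of Snhg11 lay outside it, but this ratio prompted the choice of genes, so its place is a description only.

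The proteins that bind and assemble snoRNAs were expressed in both pools. The 8 core proteins of C/D and H/ACA particles had a median of 109 TPM. Their median log2 ratio was -0.01 (0.54 with spike-in scaling), with 4 above 0 and 4 below under TMM scaling. Nop56, a C/D core protein whose own gene hosts snoRNAs, stood at 243 and 240 TPM, and Snu13, which binds the C/D motif, at 226 and 236 TPM. The 12 assembly factors had a median ratio of 0.08 (0.63 with spike-in scaling). Ruvbl1 stood at 111 and 124 TPM and Ruvbl2, its partner helicase, at 106 and 116 TPM. The 12 factors of nonsense-mediated decay had a median of 0.01 (0.57 with spike-in scaling), and 6 regulators of TOP messages one of -0.11 (0.44). Under TMM scaling none of the genes in these 4 lists passed the 2-fold rule in either direction.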

How the data were processed

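For each forebrain pool there is a table of genes and one of transcripts. Both libraries were quantified apart on GENCODE M4 transcripts and mm10, per the deposited notes. The sources used here do not give the aligner, the quantification program or the use of strand. Genes and transcripts carry the authors' estimated counts (expected counts, not normalized), per the file headers. The deposited TPM values are scaled over all listed features, spike-ins included (5.93% of TPM in replicate 1 and 4.10% in replicate 2). The deposited FPKM values and the authors' percent of each transcript within its gene were used as they stand.

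GENCODE M21 on GRCm38, the same assembly, gave symbols and positions by identifier without version (42462 of 43346 genes matched). Promoter windows came from RefSeq on GRCm38.p6 and snoRNA sequences from the GENCODE transcripts. Counts were rounded for the TMM factors of edgeR 4.0.16 and the DESeq2 1.42.0 size factors (R 4.3.3). Ratios used a prior count of 0.5 and exact Clopper-Pearson 95% intervals, which cover counting error only, since PCR copies are not independent molecules. A count of 0 allows up to 3 counts. With 1 group of 2 libraries there was no test and no p-value. Other steps used Python 3.11.15, numpy 2.4.6, pandas 2.3.3, scipy 1.17.1 and matplotlib 3.10.9. The calls were also run on simulated counts that held counting error only. That run checks the code and cannot show how the calls behave under variation between pools or in read assignment.

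The host genes and all gene lists were chosen with earlier results of these data known. The text names every host gene. Other names were mainly drawn from overlapping or near genes, snoRNAs inside hosts, leading transcripts and those with at least 10% of a gene. From each list they were drawn from the 4 members of highest TPM and any gene past the 2-fold rule. Not all of these are named. Genes past the rule were among those left out. They were 1 thalamus marker, higher in replicate 1, and 1 midbrain and hindbrain marker, higher in replicate 2. Of the 2 past it for meninges and connective tissue, both higher in replicate 2, only Col1a1 is named. Alternatives covered FPKM, posterior means, scaling, prior count, count and TPM minimums, the fold, a pseudocount of 0.1 and each replicate left out.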

Additional observations from a re-analysis of the deposited data

How the results depend on the processing

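Snhg11 was the only one of the 7 host genes called under each scaling, prior count, posterior mean, count minimum and 1.5-fold setting. The call of Snhg11 kept its direction under these settings. Spike-in scaling moved the median log2 ratio of all genes by 0.55 towards replicate 2. Under it the median of the host genes became 0.28 instead of -0.27, and the called genes numbered 21 on the side of replicate 1 and 514 on that of replicate 2 (535 in all, 3.93% of them higher in replicate 1, against 73.4% of 192). At a minimum of 20 counts, 475 genes were called, 338 and 137 by direction. At 200 counts, 38 were called, 28 and 10, and the host genes' median was 0.012, with fewer genes counted. At that minimum 1 hypothalamus marker was left, at -0.71 against a median of -2.10. The thalamus median was then -0.17 over 5 genes, against -0.52. With no count minimum 1084 genes were called, 693 and 391, and at 1.5-fold 917, 652 and 265. Without Snhg11, an alternative chosen after seeing the data, the host genes' median was -0.13. The median level of the host genes, 104 TPM, was 60.2 as FPKM, and it lay between 81.4 and 102 TPM when 1 replicate was left out. At a 50 TPM minimum, 4 host genes were left for transcript shares, all 4 with the same leading transcript and 0 shifted by 10 points. Over all genes the shifted number was 668 with posterior means, 2164 at 1 TPM and 139 at 50 TPM, against 856. A ratio cannot be formed without 1 of the libraries. No paired analysis was possible because the series has 1 group.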
